A study of Mus musculus with 426 samples.

Results

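Lyz2, Cd68, Csf1r, Ctss, Ctsb, Ctsd, Mrc1, Ms4a7, Aif1 and Cd14 are 10 genes that mark macrophages or their lysosomes. They were taken by symbol from the RNA measurements of single cells of a mouse pancreatic tumour model, where each symbol had 1 entry, so that all 10 were found among 24424 genes. Their levels are given as CPM, a gene's share of a cell's RNA counts scaled to 1000000 counts, averaged over the cells of a mouse. The genes were chosen by name and not by their levels, although earlier results of these data were known when the list was made.

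The study read RNA and DNA of the same cell in a single tube, from 3 male C57BL/6 mice carrying a pancreatic tumour. The tumours had grown for 6 to 8 weeks after 50000 KPC1199-EGFP cells, a mouse pancreatic cancer line that carries green fluorescent protein (GFP), were placed in matrigel in the pancreas at 6 to 8 weeks of age. All animals carried the same line, and no animal without a tumour was analysed here. Sorted cells of the primary tumour formed 4 groups: CD45+ (CD45 is the surface protein of blood-derived cells, encoded by Ptprc; the labels call these cells stromal), EpCAM+ (an epithelial surface protein), GFP+EpCAM+ and GFP+ (the last 3 called tumour by the labels). GFP+ cells of metastases came from the peritoneum of all 3 mice and from the kidney, liver and spleen of mice 2 and 3. A calcein dye, Calcien Violet in the labels, marked live cells. Because GFP marks only the injected line and EpCAM is a surface stain, a cell's group is a gate of the sorter and not an observed identity.

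Macrophages take up cells and particles and break them down in lysosomes, acidic vesicles filled with proteases and other hydrolases. Their survival and number depend on the receptor encoded by Csf1r, and in pancreatic tumours they are a common part of the stroma. Some of the genes used to recognise them, such as Lyz2 and Cd14, are also active in neutrophils and monocytes, and lysosomal proteases such as cathepsin B and cathepsin D are made by most cell types, tumour cells included.

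Of the 10 genes, 7 had a window around the gene start among the RefSeq promoter sequences of build GRCm38.p6, and Ctsb, Csf1r and Cd14 were named only. The windows of Lyz2 and Ctss, whose CD45+ levels stand apart from every other group, and of Ctsd, whose levels overlap between groups, are shown. They are examples, and Cd68, which also stands apart, has a window that is not shown. Each is given from 250 bases before to 30 bases after the start and read 5′ to 3′ on the gene's strand. Capitals mark AGGAAGT or its reverse complement ACTTCCT, letters of the kind bound by PU.1, an ETS-family factor of myeloid cells, and CACGTG, an E-box of the kind bound by TFEB, a factor of lysosomal genes.
Lyz2, chr10:117282243-117282522, minus strand: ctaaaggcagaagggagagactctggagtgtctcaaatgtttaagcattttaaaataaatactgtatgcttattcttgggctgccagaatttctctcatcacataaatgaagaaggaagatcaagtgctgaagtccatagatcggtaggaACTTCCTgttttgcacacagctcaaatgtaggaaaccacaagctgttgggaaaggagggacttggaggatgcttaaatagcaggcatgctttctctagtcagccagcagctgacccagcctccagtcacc
Ctss, chr3:95526536-95526815, plus strand: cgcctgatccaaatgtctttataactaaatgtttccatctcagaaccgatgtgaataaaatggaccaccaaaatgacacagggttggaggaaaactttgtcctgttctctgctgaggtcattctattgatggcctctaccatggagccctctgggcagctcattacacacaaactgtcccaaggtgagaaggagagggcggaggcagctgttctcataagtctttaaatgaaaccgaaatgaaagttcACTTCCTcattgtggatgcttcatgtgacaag
Ctsd, chr7:142387798-142388077, minus strand: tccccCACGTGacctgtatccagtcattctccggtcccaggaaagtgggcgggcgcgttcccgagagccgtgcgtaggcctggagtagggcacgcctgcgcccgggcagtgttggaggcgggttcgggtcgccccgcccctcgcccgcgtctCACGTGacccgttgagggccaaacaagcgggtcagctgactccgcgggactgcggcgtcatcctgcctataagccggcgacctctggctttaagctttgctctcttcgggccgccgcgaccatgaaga
Letters were searched on either strand in windows from 250 bases before to 50 bases after the start, longer than those shown. A gene was counted if any of its windows held the letters, whereas the shares over all promoters are of single windows. The counts and the shares are therefore in unlike units. AGGAAGT was in the windows of Lyz2 (100 bases before the start), Ctss (2 bases before it) and Mrc1, that is 3 of 7 genes, against 9.35% of 32851 promoter windows. The shorter GAGGAA, which can share letters with it, was in 5 of 7 (Cd68, Ctss, Mrc1, Ms4a7 and Aif1), against 28.3% of all windows. CACGTG was in the Ctsd window alone, at 245 and 98 bases before the start, against 7.15% of all windows. GGGCGG, a GC box, was in 4 of 7 against 35.7%, TATAAA in that of Ctss against 13.6%, and TGACTCA, the AP-1 letters, in that of Cd68 against 5.2%. AGGAAGT was missing from Cd68, whose CD45+ levels also stand apart from every other group. It was present in Mrc1, whose CD45+ range overlapped with every other group. A link between these letters and the levels was not tested. The letters were chosen after the windows had been looked at, and a match is a run of letters and not a measured site.

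Of 418 cells, 368 had both 500 or more detected genes and 10000 or more counts and were used for RNA: 56 CD45+, 25 EpCAM+ and 31 GFP+EpCAM+ cells of the primary tumour, 85 GFP+ cells of peritoneum, 44 of kidney, 16 of liver and 35 of spleen, and 76 GFP+ cells of the primary tumour. In peritoneum of mouse 1, 2 pairs of libraries differed by less than the sampling noise in their DNA counts and were counted as 1 cell each. Counts per cell ran from 10805 to 17845616, with a median of 1016780. Ptprc averaged 254, 140.2 and 250.3 CPM in CD45+ cells of mice 1, 2 and 3, against 0 to 11.4 CPM in the other groups apart from 33.8 CPM in kidney of mouse 3. The CD45+ cells were mixed: their summed level of 24 other macrophage and monocyte genes was 10219.8 to 18319 CPM, of 12 neutrophil genes 14346 to 16368 CPM and of 13 T and natural killer cell genes 1495 to 3759 CPM over the 3 mice.

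Some shallow libraries resembled a deeper one in their RNA. Among 67528 pairs of cells compared over genes with at least 5 expected counts in both, 26 pairs had a correlation of at least 0.65 or a chi-square per degree of freedom under 5. In all 26 the deeper library had at least 31.8 times the counts, and 25 of them came from the same mouse. The chi-square per degree of freedom was under 5 in 10 of the pairs. The others passed by correlation alone and reached 817, so that they differed beyond sampling noise. The closest CD45+ pair, cells 16 and 18 of mouse 2 with 7356936 and 13605 counts, had r = 0.885 and a chi-square per degree of freedom of 1.29. In 5 pairs the deeper library was a CD45+ cell and the shallower one belonged to another sort. The cause was not tested. Leaving out the 26 shallower libraries changed no call of a gene named here. It moved 2 of 80 levels by more than the spread between mice, Csf1r in spleen (1.38 instead of 3.38 CPM) and Mrc1 in liver (7.56 instead of 6.61 CPM). That spread includes the libraries left out, and larger shifts lay within it. In GFP+EpCAM+ cells Lyz2 averaged 31.9 instead of 234.7 CPM and Cd68 56.9 instead of 148 CPM. In peritoneum Csf1r averaged 5.33 instead of 15.4 CPM. Single cells weighed heavily in the means: in 98 of 210 means of a gene in a mouse and group, 1 cell gave more than 50% of the summed CPM.

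CD45+ cells had the highest mean of each of the 10 genes among the 8 groups. For Lyz2, Cd68 and Ctss every CD45+ mouse mean was above every mouse mean of all 7 other groups, which held for 1.13% of 17357 genes with a mean of at least 10 CPM in 1 mouse and group. Set against each group alone, this held for 7 of the 10 genes over EpCAM+ cells (5.08% of all genes), 6 over GFP+EpCAM+ cells (17.3%), 5 over peritoneum (3.11%), 4 over kidney (6.12%), 5 over liver (11.4%), 8 over spleen (6.9%) and 7 over GFP+ cells of the primary tumour (6.79%). Csf1r was above 6 of the 7 groups in this way, Ms4a7 and Cd14 above 5, Aif1 above 3, Ctsb and Ctsd above 1 and Mrc1 above none. In the plot of levels by mouse, Lyz2, Cd68 and Ctss lie apart in CD45+ cells, while the ranges of Ctsb and Ctsd overlap between most groups. Without the shallower libraries of the alike pairs the count was 4 groups for Ctsd and 2 for Ctsb, and the genes above all 7 groups were again Lyz2, Cd68 and Ctss.

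**Figure D1:**
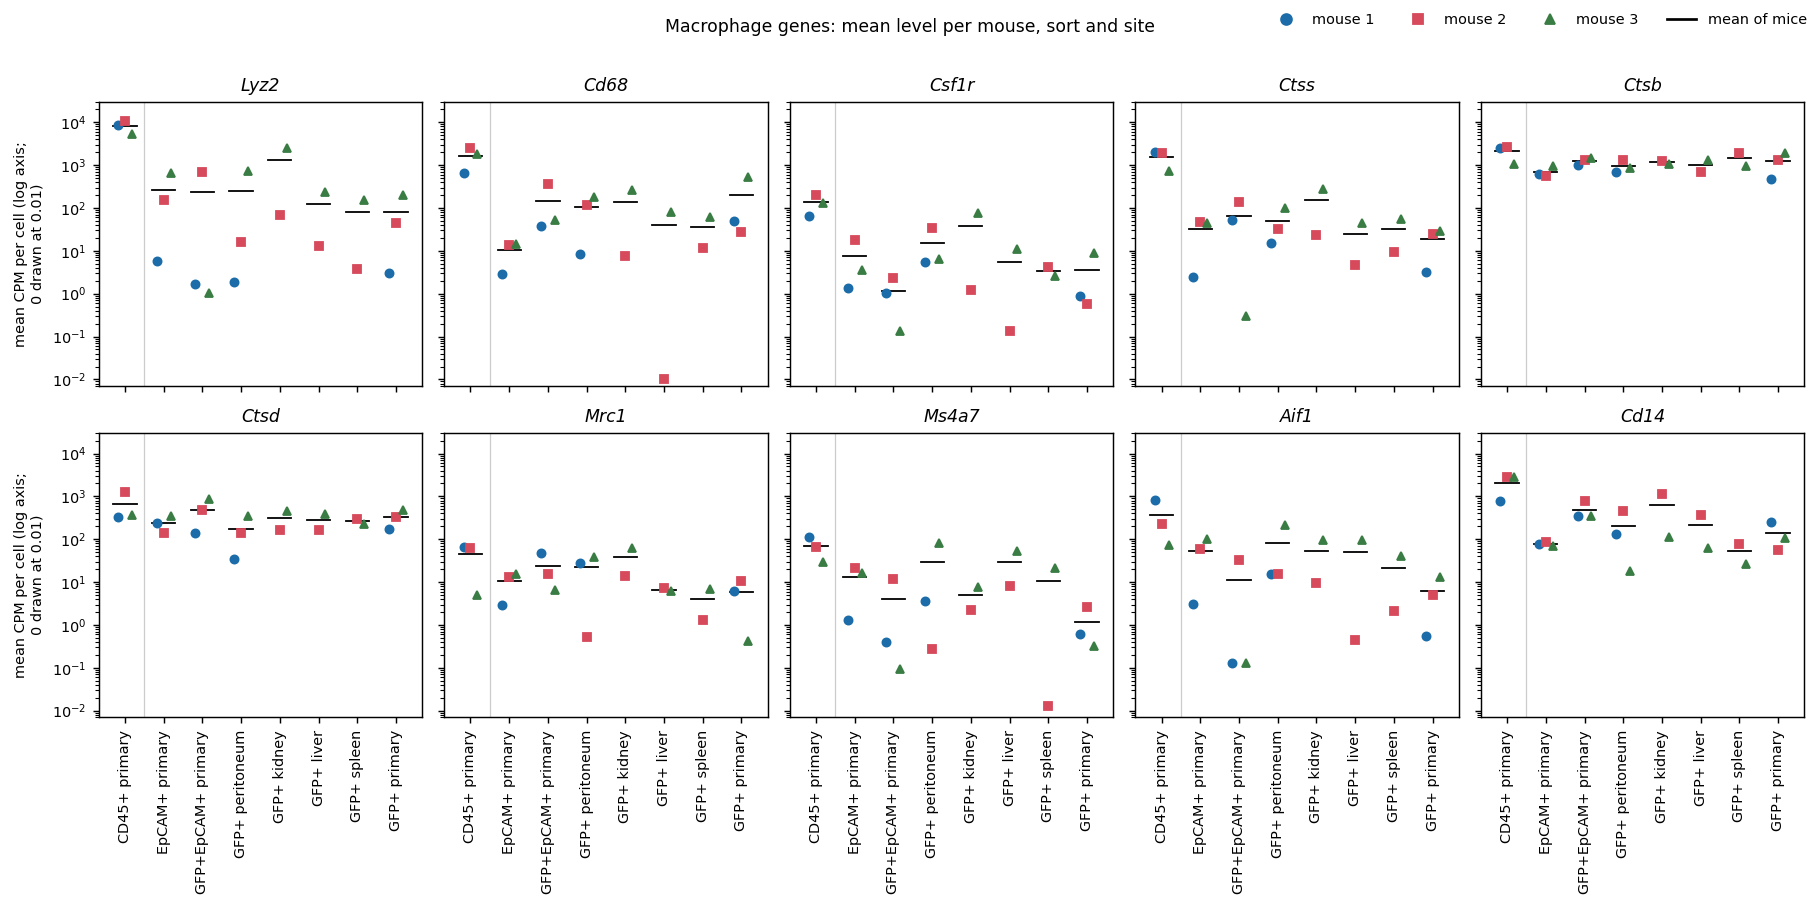
Mean level of each gene (CPM, log axis, 0 drawn at 0.01) in each sort and site; points are mice and bars the mean of mice. Lyz2 means lie between 5279 and 10755 CPM in CD45+ cells and at or below 2504 CPM elsewhere, whereas Ctsb means lie between 476 and 2673 CPM in all groups.

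In edgeR quasi-likelihood fits on counts summed per mouse and sort, 5 of the 10 genes were higher in CD45+ than in GFP+ cells of the primary tumour (Lyz2, Ctss, Ms4a7, Aif1 and Cd14), where 0.629% of 19703 genes were called higher and 0.188% lower. Against EpCAM+ cells 4 were higher (Lyz2, Cd68, Ctss and Cd14), with 0.619% of all genes called higher and 0.178% lower. Against GFP+EpCAM+ cells 3 were higher (Lyz2, Csf1r and Ctss), with 1.18% of all genes called higher and 0.508% lower. No member was called lower in any of these 3 comparisons, which share their CD45+ samples. The median log2 difference of the 10 genes was 5.02, 6.30 and 5.76 over GFP+, EpCAM+ and GFP+EpCAM+ cells, against 0.20, 0.09 and 0.52 over all genes. A higher sum can come from more cells with the RNA or from more RNA per cell, which cannot be told apart in it.

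Most calls other than those of Lyz2 were lost when 1 mouse was left out. Calls over all genes also fell without mouse 2 or mouse 3. Genes called higher over GFP+ cells were 124 of 19703 with all mice. Without mouse 1, 2 and 3 they were 130 of 17889, 43 of 20000 and 17 of 20562. Over EpCAM+ cells 122 with all mice became 136, 45 and 10 in that order, and over GFP+EpCAM+ cells 233 became 175, 60 and 10. Lyz2 was called in all 3 comparisons whichever mouse was left out, with log2 differences of 10.79 to 12.10 over GFP+, 8.02 to 9.95 over EpCAM+ and 11.19 to 12.75 over GFP+EpCAM+ cells. Ctss was also called in all 3 fits over GFP+ cells. Cd14 over GFP+ cells was called without mouse 1 alone, and Ms4a7 and Aif1 in none of the 3 fits. Over EpCAM+ cells Cd68 and Ctss were lost without mouse 3, and Cd14 without mouse 2 or mouse 3. Over GFP+EpCAM+ cells Csf1r was lost without any one mouse and Ctss without mouse 2 or mouse 3. With the mouse as a block, which compares sorts of the same animal, Ms4a7 over GFP+ cells (adjusted p = 0.0619) and Csf1r over GFP+EpCAM+ cells (adjusted p = 0.0555) were lost, and Cd68 over GFP+EpCAM+ cells was called (adjusted p = 0.0482).

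**Figure D2:**
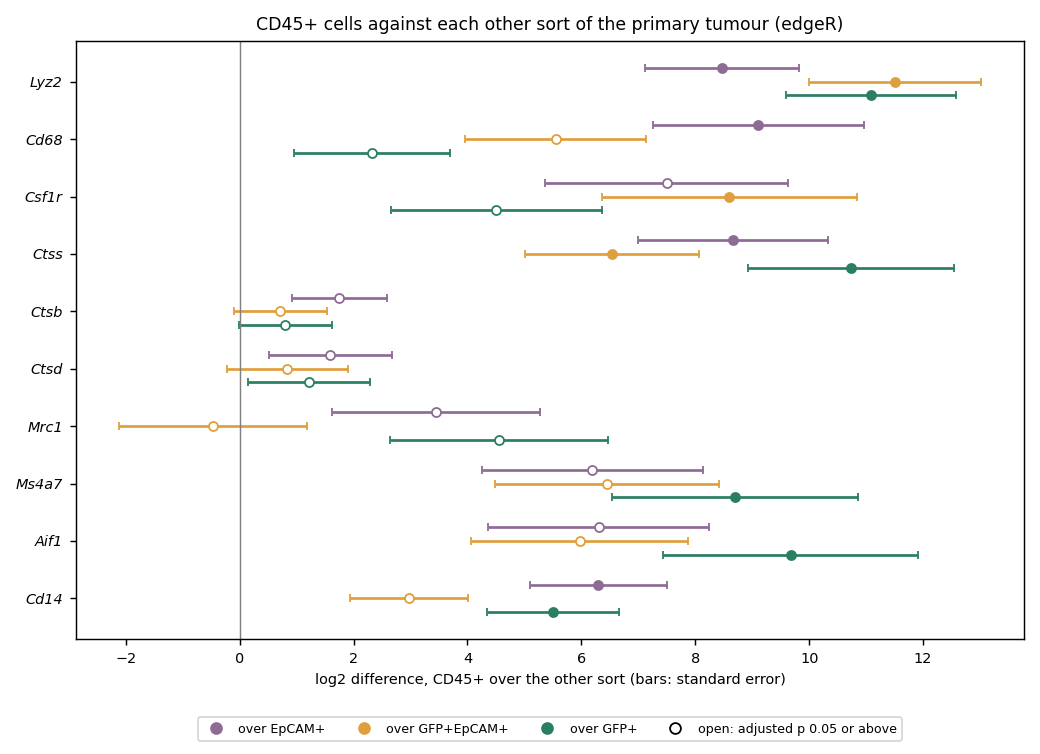
Log2 difference of CD45+ cells over each other sort of the primary tumour from edgeR, with bars of 1 standard error; filled points have an adjusted p under 0.05. Lyz2 lies at 8.47 to 11.51 and is filled in all 3 comparisons, while Ctsb and Ctsd lie at 0.71 to 1.75 with open points.

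Csf1r encodes the receptor for CSF-1 and IL-34, on which macrophages depend. Its mean was 65.4, 206 and 132 CPM in CD45+ cells of mice 1, 2 and 3, against 1.39, 18.3 and 3.58 CPM in EpCAM+, 1.04, 2.27 and 0.133 CPM in GFP+EpCAM+ and 0.876, 0.565 and 8.99 CPM in GFP+ cells. The CD45+ range did not overlap with that of any other primary sort. The log2 difference was 8.60 ± 2.24 (SE) over GFP+EpCAM+ cells (adjusted p = 0.0447, and 0.0555 with the mouse as a block), 7.50 ± 2.13 over EpCAM+ cells (adjusted p = 0.0828) and 4.51 ± 1.85 over GFP+ cells (adjusted p = 0.213). Only 13 of 56 CD45+ cells reached 100 CPM, 8 of them in mouse 2, and a single cell gave 71.3% of the summed CPM in mouse 1.

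Cd14 encodes a receptor that binds bacterial lipopolysaccharide together with Toll-like receptor proteins. It averaged 760.4, 2768 and 2799 CPM in CD45+ cells, against 78.7, 88 and 68.5 CPM in EpCAM+, 339.7, 781 and 352 CPM in GFP+EpCAM+ and 259, 55 and 107 CPM in GFP+ cells. CD45+ cells were above EpCAM+ and GFP+ cells in every mouse, but the value of mouse 1 lay just below that of GFP+EpCAM+ cells in mouse 2, so these ranges overlapped. The log2 difference was 6.30 ± 1.20 over EpCAM+ cells (adjusted p = 0.00844), 5.50 ± 1.16 over GFP+ cells (adjusted p = 0.0176) and 2.98 ± 1.03 over GFP+EpCAM+ cells (adjusted p = 0.104). With log2(CPM+1) averaged over cells, the difference over GFP+EpCAM+ cells turned negative (-0.28, limma). Of the CD45+ cells 30 of 56 reached 100 CPM, against 24 of 31 GFP+EpCAM+ cells, a difference in shares that was not tested.

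Mrc1 encodes CD206, the mannose receptor of macrophages and some endothelial cells. It averaged 65, 62.9 and 5.13 CPM in CD45+ cells, against 2.9, 12.9 and 15.3 CPM in EpCAM+, 48.8, 15.3 and 6.5 CPM in GFP+EpCAM+ and 6.08, 10.9 and 0.423 CPM in GFP+ cells. These ranges overlapped with every other group, and mouse 3 stood far below mice 1 and 2; 1 cell gave 75.1% of the summed CPM in CD45+ cells of mouse 1. The log2 differences were 4.55 ± 1.91 over GFP+ cells (adjusted p = 0.224), 3.45 ± 1.82 over EpCAM+ cells (adjusted p = 0.369) and -0.47 ± 1.66 over GFP+EpCAM+ cells (adjusted p = 0.865). In GFP+EpCAM+ cells 1 cell gave 97.9%, 98.8% and 92.9% of the summed CPM of mice 1, 2 and 3, and the sign of that last difference turned under 7 other settings, without mouse 1 among them (0.92).

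Cd68 encodes a heavily glycosylated membrane protein of late endosomes and lysosomes. It averaged 655, 2458 and 1779 CPM in CD45+ cells, against 2.93, 13.9 and 14.8 CPM in EpCAM+, 38.1, 355 and 51.1 CPM in GFP+EpCAM+ and 48.6, 26.9 and 538 CPM in GFP+ cells. The CD45+ range lay above all others, though the value of GFP+ cells in mouse 3 came close to that of CD45+ cells in mouse 1. The log2 difference was 9.11 ± 1.86 over EpCAM+ cells (adjusted p = 0.0133), 5.55 ± 1.59 over GFP+EpCAM+ cells (adjusted p = 0.0628, and 0.0482 with the mouse as a block) and 2.32 ± 1.37 over GFP+ cells (adjusted p = 0.388). Without the shallower libraries of the alike pairs, the GFP+EpCAM+ mean of mouse 2 was 81.4 instead of 355 CPM, since 1 shallow cell gave 79.4% of it. A single cell also gave 72.4% of the summed CPM in CD45+ cells of mouse 3 and 94.3% in GFP+EpCAM+ cells of mouse 1.

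Ms4a7 encodes a four-span membrane protein found mostly in macrophages, and Aif1 encodes IBA1, a calcium-binding protein of macrophages and microglia. Ms4a7 averaged 110.3, 66.5 and 29 CPM in CD45+ cells, against 1.28, 21.4 and 16.5 CPM in EpCAM+, 0.39, 11.6 and 0.0943 CPM in GFP+EpCAM+ and 0.623, 2.61 and 0.324 CPM in GFP+ cells. Its CD45+ values lay above those of the other primary sorts, and a single cell gave 86.9% and 90.4% of the summed CPM in mice 1 and 3. Aif1 averaged 819, 226 and 74.6 CPM in CD45+ cells, against 3.1, 58.9 and 99.5 CPM in EpCAM+, 0.131, 33.3 and 0.127 CPM in GFP+EpCAM+ and 0.546, 5.03 and 13.2 CPM in GFP+ cells. For Aif1, EpCAM+ cells of mouse 3 were above CD45+ cells of that mouse, with 1 cell giving 92.3% of them, and 1 cell gave 97% in GFP+ cells of mouse 3. Over GFP+ cells the log2 differences were 8.70 ± 2.16 for Ms4a7 (adjusted p = 0.0469, and 0.0619 with the mouse as a block) and 9.68 ± 2.24 for Aif1 (adjusted p = 0.0314). Over EpCAM+ cells they were 6.19 ± 1.94 (adjusted p = 0.115) and 6.30 ± 1.94 (adjusted p = 0.112), and over GFP+EpCAM+ cells 6.45 ± 1.96 (adjusted p = 0.0711) and 5.97 ± 1.91 (adjusted p = 0.0829), with Ms4a7 given first.

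Lyz2 encodes lysozyme, an enzyme that cuts bacterial cell walls and is abundant in macrophages, monocytes and neutrophils. It averaged 8791, 10755 and 5279 CPM in CD45+ cells, against 5.69, 152 and 647 CPM in EpCAM+, 1.72, 701 and 1.03 CPM in GFP+EpCAM+ and 3, 44.9 and 199 CPM in GFP+ cells. No other mouse and sort of the primary tumour came near the CD45+ values. In CPM of the summed counts used by the fits, where deep cells weigh more, Lyz2 averaged 14453 in CD45+ cells. On that scale it was 37.5 in EpCAM+, 3.08 in GFP+EpCAM+ and 5.02 in GFP+ cells. The log2 difference was 11.51 ± 1.51 over GFP+EpCAM+ cells (adjusted p = 0.000148), 11.09 ± 1.49 over GFP+ cells (adjusted p = 0.000287) and 8.47 ± 1.35 over EpCAM+ cells (adjusted p = 0.00166), higher in 3 of 3 mice each time. The levels outside CD45+ cells rested on few cells: 1 cell of 12787 counts gave 88.1% of the summed CPM in GFP+EpCAM+ cells of mouse 2, and without it the mean was 92.9 instead of 701 CPM. Lyz2 and its neighbour Lyz1 are near-identical copies, and the sources used here do not say how reads were divided between them, so either level is uncertain.

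Ctss encodes cathepsin S, a lysosomal cysteine protease of antigen-presenting cells that trims the invariant chain of MHC class II. It averaged 1977, 1932 and 732 CPM in CD45+ cells, against 2.45, 47.2 and 45.5 CPM in EpCAM+, 52.3, 139 and 0.307 CPM in GFP+EpCAM+ and 3.22, 24.9 and 28.9 CPM in GFP+ cells. The CD45+ range lay above those of the other sorts, which overlapped each other. A single cell gave 98.9% of the summed CPM in GFP+EpCAM+ cells of mouse 1 and 92.7% in GFP+ cells of mouse 3. The log2 difference was 10.73 ± 1.81 over GFP+ cells (adjusted p = 0.00221), 8.66 ± 1.67 over EpCAM+ cells (adjusted p = 0.00886) and 6.54 ± 1.52 over GFP+EpCAM+ cells (adjusted p = 0.027).

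Ctsb and Ctsd encode cathepsin B, a cysteine protease, and cathepsin D, an aspartic protease, which most cells keep in their lysosomes. Ctsb averaged 2544, 2673 and 1078 CPM in CD45+ cells, against 624, 549.8 and 956 CPM in EpCAM+, 1027, 1315 and 1436 CPM in GFP+EpCAM+ and 476, 1314 and 1971 CPM in GFP+ cells. Ctsd averaged 337, 1273 and 369.8 CPM in CD45+ cells, against 233, 143 and 349 CPM in EpCAM+, 143, 487 and 851 CPM in GFP+EpCAM+ and 177, 323 and 472 CPM in GFP+ cells. For both genes the CD45+ range overlapped with those of GFP+EpCAM+ and GFP+ cells, that of Ctsd also with EpCAM+ cells, and CD45+ cells of mouse 3 had less of both than GFP+EpCAM+ and GFP+ cells of that mouse. The log2 differences of Ctsb were 0.80 ± 0.82, 1.75 ± 0.84 and 0.71 ± 0.82 over GFP+, EpCAM+ and GFP+EpCAM+ cells (adjusted p = 0.631, 0.30 and 0.573), and those of Ctsd 1.22 ± 1.07, 1.59 ± 1.08 and 0.84 ± 1.06 (adjusted p = 0.572, 0.555 and 0.609). With each cell's log2(CPM+1) averaged per mouse, all 6 differences by limma were below 0. The largest was -1.81, for Ctsb over GFP+EpCAM+ cells. On simulated counts of this design the fit of CD45+ against GFP+ cells called 2% of genes with a true log2 difference of 4. At 8 it called 54%. Each share is over 50 changed genes and is not that of Ctsb or Ctsd. Whether such a difference in Ctsb or Ctsd would be called was not tested. Over GFP+ cells their SE was 0.82 and 1.07, and Cd14, with an SE of 1.16, was called at a log2 difference of 5.50.

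Genes of the same cell type and of the same organelle, from lists that exclude the 10, moved unlike each other. Of 24 other macrophage and monocyte genes, 7, 7 and 12 were higher in CD45+ than in GFP+, EpCAM+ and GFP+EpCAM+ cells and none was lower, with median log2 differences of 6.95, 7.25 and 7.97. Fcgr3, an antibody receptor (log2 difference 11.19, adjusted p = 0.000287), and C1qb, C1qc and C1qa, the chains of complement C1q (10.39, 11.74 and 11.81; adjusted p = 0.0016, 0.00221 and 0.00558), had the smallest p over GFP+ cells. Of 30 other lysosomal genes, 0, 1 and 1 were higher and none lower, with medians of 0.22, 1.53 and 0.17, near those of all genes over GFP+ and GFP+EpCAM+ cells. The gene called in the last 2 comparisons was Laptm5, a lysosomal protein of blood cells (8.66, adjusted p = 0.0251, over EpCAM+ and 10.81, adjusted p = 0.00733, over GFP+EpCAM+ cells), which the pan-leukocyte list also holds. Markers of other blood cells of the sort were called in part: of 11 neutrophil genes tested 5, 6 and 8 were higher, of 12 genes of T and natural killer cells 6, 5 and 6, of 8 dendritic cell genes 1, 0 and 2, and of 7 B cell genes none. Their part in the differences of Lyz2 and Cd14 was not tested.

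The share of cells at 100 CPM or more also divided the genes. Lyz2 reached it in 34 of 56 CD45+ cells (50%, 85% and 42.9% of cells in mice 1, 2 and 3), against 28% of EpCAM+, 6.45% of GFP+EpCAM+ and 7.89% of GFP+ primary cells. Cd68 reached it in 37.5% of CD45+ cells, against 0 of 25 EpCAM+ cells (which allows up to 12%), 19.4% of GFP+EpCAM+ and 11.8% of GFP+ cells. Csf1r reached it in 23.2% of CD45+ cells, against 0 of 25 EpCAM+ cells, 0 of 31 GFP+EpCAM+ cells (up to 9.68%) and 1.32% of GFP+ cells. Most CD45+ cells thus lay below 100 CPM of Cd68 and of Csf1r. Ctsb went the other way: 62.5% of CD45+ cells reached 100 CPM, against 72% of EpCAM+, 96.8% of GFP+EpCAM+ and 82.9% of GFP+ cells, and 85.9% to 100% of GFP+ cells at the sites. These shares pool the cells of all mice and cover counting error only. The share of CD45+ cells with a gene was highest in mouse 2 for all 10 genes, and the order of the groups can change with the threshold, since at a low threshold shallow cells pass with a single count.

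**Figure D3:**
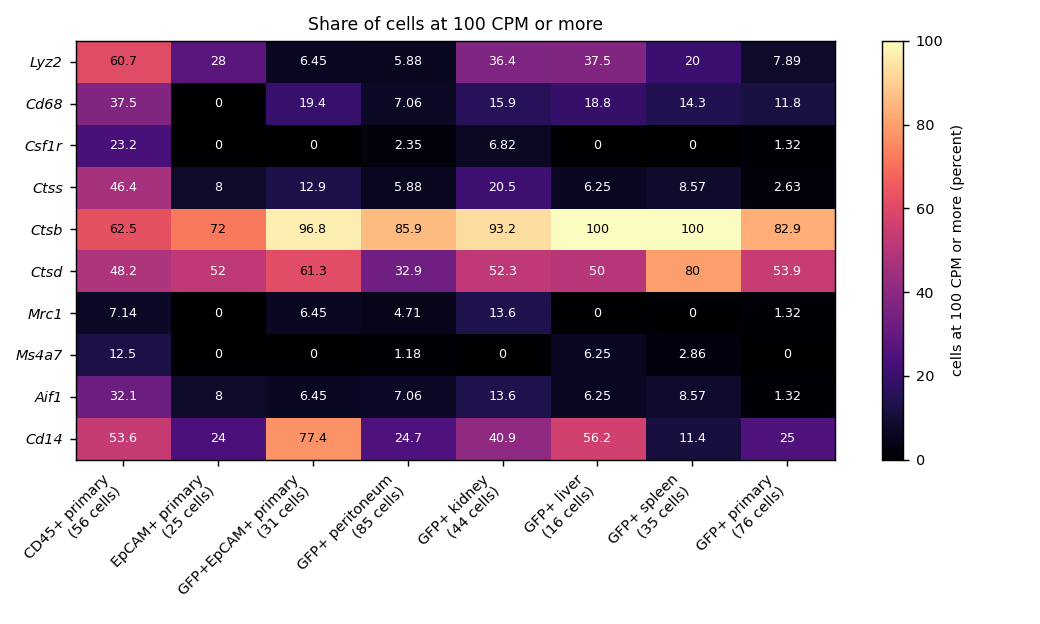
Share of cells at 100 CPM or more (percent, colour and number) for each gene in each sort and site, all mice pooled, with the number of cells below each group. Ctsb is at 62.5% in CD45+ cells and 72% or more elsewhere, Cd14 is highest in GFP+EpCAM+ cells (77.4%), and Csf1r is at 0 in 4 of the 8 groups.

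Within the CD45+ cells the 7 identity genes (Lyz2, Cd68, Csf1r, Mrc1, Ms4a7, Aif1 and Cd14) came together in some cells and were missing from others. At 100 CPM or more, 24 of 56 cells (42.9%) held at least 3 of them, 16 held none and 1 held all 7. By mouse these were 8 of 22, 14 of 20 and 2 of 14 cells, so that mouse 2 gave most of them. The cell with all 7, from mouse 2, had 5228 CPM of Lyz2, 1862 of Cd68, 1644 of Csf1r, 455 of Mrc1, 288 of Ms4a7, 338 of Aif1 and 272 of Cd14. There were 6 cells each with exactly 2 and exactly 3. Without the 4 CD45+ libraries that were the shallower of an alike pair, 20 of 52 cells held at least 3.

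High Lyz2 came with different partners in single cells. A CD45+ cell of mouse 3 had 19783 CPM of Lyz2 with 6.28 CPM of Cd68, 1.57 of Csf1r and no Ctss. A cell of mouse 1 had 45585 CPM of Lyz2 beside 17880 CPM of S100a8, a neutrophil calcium-binding protein, with 2817 CPM of Cd68 and 3.59 of Ctss. Another pattern was a mouse 3 cell with 18034 CPM of Cd68 and 1205 of Csf1r but 4.28 of Lyz2 and no Mrc1, Ms4a7 or Aif1. These cells were named for their contrast after their values had been seen.

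**Figure D4:**
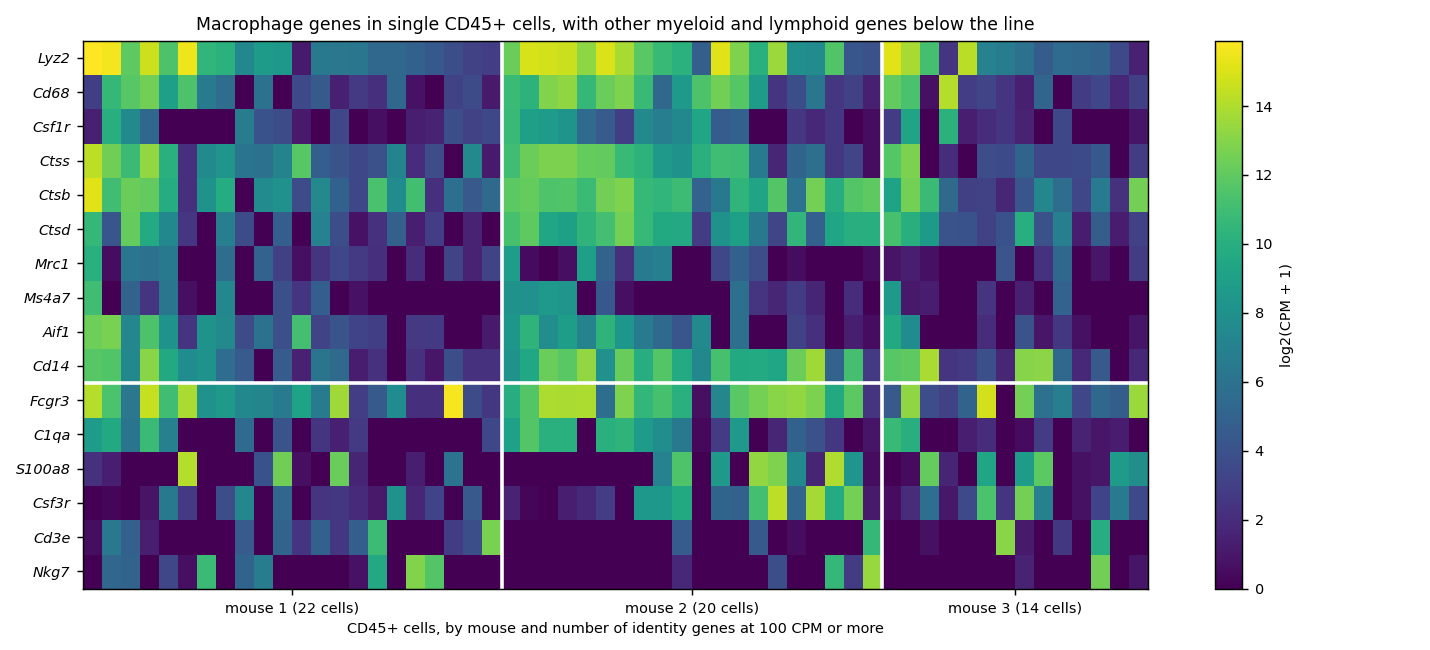
Levels (log2(CPM + 1), colour) of the 10 genes and of 6 other myeloid and lymphoid genes in each of 56 CD45+ cells, ordered within a mouse by the number of identity genes at 100 CPM or more. This order, with ties set by Lyz2, puts cells with more identity genes to the left, so that their place is not a result. Cells with at least 3 identity genes are 14 of 20 in mouse 2 and 2 of 14 in mouse 3.

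Across the 56 CD45+ cells the correlations of log2(CPM + 1) between the 10 genes were all positive, from 0.168 (Csf1r with Mrc1) to 0.849 (Ctss with Aif1), with a median of 0.473 over 45 pairs. They are given without a test, since the cells come from 3 mice and share their libraries' depth and the difference between cell types. Ctss and Aif1 were at 100 CPM or more in the same 18 cells, which is every cell where Aif1 reached it. Cd68 with Ctss (0.694), Ctsd with Cd14 (0.684), Lyz2 with Cd14 (0.64) and Ctsb with Ctsd (0.615) followed among the higher values. Against the summed levels of other lists, Lyz2 had r = 0.607 with macrophage and monocyte genes and 0.0209 with neutrophil genes, Cd14 had 0.613 and 0.315, and Cd68 had 0.602 with the other lysosomal genes. Mrc1 stood apart, with 0.191 to the macrophage list and 0.362 to the B cell list.

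Among 6621 genes compared over these cells, the nearest pattern to Lyz2 was that of Lyz1 (0.767), its near-identical copy, then C1qb (0.723) and C1qa (0.684). Nearest to Cd68 were Ctsz (0.73), Ifi30 (0.725) and Cfp (0.713), and among those nearest to Csf1r were Hexa (0.666) and Acaa1a (0.605). Ctss was nearest to Aif1 (0.849), Ctsc (0.825) and Cd74 (0.789), and Aif1 to Ctss, H2-Ab1 (0.743) and H2-Aa (0.741), the last 2 being chains of MHC class II and Cd74 its invariant chain. Ctsd was nearest to C1qb (0.736), Lgmn (0.724) and Cd14 (0.684), and Ctsb to Ctsd (0.615), C1qb (0.59) and Trf (0.579). Ms4a7 had Pxdc1 (0.706), C1qb (0.68) and Apoe (0.633), Cd14 had Ctsd, C5ar1 (0.643) and Il1b (0.64), and Mrc1 had Sepp1 (0.608), Fads1 (0.608) and Ccl7 (0.604). C1qb is thus among the 3 nearest of 4 of the 10 genes.

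Between the sorts of the primary tumour that are not CD45+, no member passed the test. EpCAM+ against GFP+ cells gave 0 of 10 by edgeR (0% of 19703 genes were called in either direction), with 2 at an unadjusted p under 0.05, and the smallest p was that of Cd68, at 2.93, 13.9 and 14.8 CPM in EpCAM+ and 48.6, 26.9 and 538 CPM in GFP+ cells (log2 difference -6.78 ± 1.68, adjusted p = 0.343). GFP+EpCAM+ against GFP+ cells gave 0 of 10 (0% of all genes), with 6 at an unadjusted p under 0.05, and Ctss had the smallest (4.20 ± 1.36, adjusted p = 0.275). EpCAM+ against GFP+EpCAM+ cells gave 0 of 10 (0% of all genes), with 4 at an unadjusted p under 0.05, led by Cd14, which was at 68.5 to 88 CPM in EpCAM+ and 339.7 to 781 CPM in GFP+EpCAM+ cells without overlap (-3.32 ± 1.05, adjusted p = 0.287). Over all 19703 genes, 2256, 2002 and 2707 had an unadjusted p under 0.05 in these comparisons, in that order. DESeq2 called Cd68 lower in the first, where it called 541 of 17914 genes lower. It called Ctss and Mrc1 higher in the second, where 380 genes were higher. In the third it called no member, with 406 genes higher and 733 lower. No member was called by limma.

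GFP+ cells at the sites, set against GFP+ cells of the primary tumour, gave no called member by edgeR either. In the peritoneum Lyz2 averaged 1.86, 16.1 and 745 CPM in mice 1, 2 and 3 and in mice 2 and 3 it was 68.7 and 2504 CPM in kidney, 13.2 and 230.4 CPM in liver and 3.81 and 155 CPM in spleen. In GFP+ cells of the primary tumour it was 3, 44.9 and 199 CPM in mice 1, 2 and 3. Lyz2 was higher in mouse 3 than in mouse 2 at all 4 sites and in the primary tumour, and the mouse 3 values of kidney, peritoneum and liver lay above every primary value while those of mouse 2 there lay within the primary range, so that the groups overlapped. Of these mouse 3 values, 1 cell gave 83.2% of the summed CPM in peritoneum and 61.7% in liver, and 2 cells gave 84.3% in kidney. The log2 difference in kidney was 7.10 ± 1.70 (adjusted p = 0.248; 0% of 21988 genes were called), 8.20 without mouse 2 (adjusted p = 0.000258) and 1.61 without mouse 3 (adjusted p = 1); leaving out mouse 2 or mouse 3 leaves 1 kidney sample, which is taken to vary like the other groups. By edgeR 5 members had an unadjusted p under 0.05 in kidney, 5 in peritoneum, 2 in liver and 1 in spleen. Over all 21988 genes these counts were 1321, 1341, 3130 and 1355, in the same order. DESeq2 called Aif1 higher in peritoneum and Ctss higher in kidney, where 82 and 124 of 20574 genes were called higher. No member was called by limma.

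The other genes at the sites were as uneven. Cd14 in kidney was 1143 CPM in mouse 2 and 111 CPM in mouse 3, against 259, 55 and 107 CPM in the primary tumour, and Csf1r in kidney 1.23 and 74.9 CPM, against 0.876, 0.565 and 8.99 CPM. Ms4a7 in peritoneum was 3.61, 0.281 and 84 CPM, against 0.623, 2.61 and 0.324 CPM (log2 difference 5.50 ± 1.88, adjusted p = 0.405; 0% of genes called higher and 0.0091% lower), and 1 cell gave 92.6% of the summed CPM of mouse 3. Cd68 in liver was 0 and 78.6 CPM and in spleen 11.7 and 61 CPM, against 48.6, 26.9 and 538 CPM, with log2 differences of -5.87 ± 2.03 (adjusted p = 0.217; 0.00455% of genes called higher and 0.0091% lower) and -5.60 ± 1.99 (adjusted p = 0.535; 0% called). With the mouse as a block Cd68 was called lower in liver (adjusted p = 0.00871). Ctsb was 684 to 1922 CPM at the 4 sites, within its range of 476 to 1971 CPM in the primary tumour. Ctsd was 35.2 to 458 CPM, against 177 to 472 CPM in the primary tumour, and was lower than in the primary tumour of the same mouse in 3 of 3 mice in peritoneum and 2 of 2 in kidney, liver and spleen. Its log2 differences were -1.89 ± 1.10, -0.36 ± 1.20, -0.81 ± 1.22 and -0.72 ± 1.22 in peritoneum, kidney, liver and spleen (adjusted p = 0.978, 1.00, 0.729 and 0.999). Between the sites themselves, 6 comparisons gave 60 tests of the members, of which edgeR called none (smallest adjusted p = 0.346). An unadjusted p under 0.05 was found in 8, and the matching share over all genes is not given here.

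Outside the CD45+ sort 18 cells held at least 3 identity genes at 100 CPM or more: 6 in kidney, 3 in peritoneum, 3 in spleen, 2 in GFP+EpCAM+, 2 in GFP+ primary, 1 in EpCAM+ and 1 in liver. This rule was set after the values had been seen. Where libraries under 50000 counts or 2000 genes were left out, 11 such cells were kept, and without the shallower libraries of the alike pairs 13. The DNA of the same tube gives a second measure of such a cell. The DNA deviation of a cell is the SD over 19 autosomes of the log2 ratio of each chromosome's share of its counts to the CD45+ median share. Its median was 0.0773 in 53 CD45+ cells (quartiles 0.0355 and 0.141) and 0.331 to 0.374 in the other groups. The CD45+ cells are themselves the reference, and their deviations reached 0.605. Among CD45+ cells the deviation had a Spearman correlation of 0.407 with the number of identity genes at 100 CPM or more, which was not tested.

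A kidney cell of mouse 3 with 22041 CPM of Lyz2, 3151 of Cd68, 642 of Csf1r and 297 of Mrc1 had a DNA deviation of 0.0491, with 488 CPM of Ptprc and 1504 of C1qa. A peritoneal cell of mouse 3 with 13626 CPM of Lyz2, 1712 of Ms4a7 and 4403 of Aif1 had a deviation of 0.11, with 102 CPM of Ptprc and 881 of C1qa. The chromosome profile of the kidney cell had a correlation of 0.300 with the median GFP+EpCAM+ cell and that of the peritoneal cell -0.216. Both cells came from the GFP+ gate, and their deviations lay between the CD45+ quartiles and below the lower quartiles of their own groups, 0.321 in kidney and 0.317 in peritoneum. A second kidney cell of mouse 3 had 22297 CPM of Lyz2, a deviation of 0.289 and a correlation of 0.029. The peritoneal cell gave 83.2% of the summed Lyz2 CPM of its mouse and the second kidney cell 42.4%. Their part in the site means was not tested beyond these shares.

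The other such cells with a DNA value had deviations of 0.205 to 0.738, the highest in kidney of mouse 3, and some had too little DNA to measure it. A GFP+EpCAM+ cell of mouse 2 had 819 CPM of Lyz2, 366 of Cd68, 151 of Mrc1, 151 of Aif1 and 215 of Cd14, no Ptprc, a deviation of 0.305 and a correlation of 0.721 with the median GFP+EpCAM+ profile. A peritoneal cell of mouse 2 had 2640.1 CPM of Cd68 and 743 of Csf1r in 24242 counts and no DNA value, and its RNA had r = 0.863 with a CD45+ cell of mouse 2 that had 4140239 counts, 2810 CPM of Cd68 and 643 of Csf1r. A kidney cell of mouse 2 with 4656 CPM of Cd14 had a deviation of 0.343 and r = 0.742 with a CD45+ cell at 12933 CPM of Cd14. The chi-square per degree of freedom to the CD45+ cell was 4.21 for this peritoneal cell and 123 for the kidney cell. This value rises with depth, and the libraries had 24242 and 108897 counts, so that 4.21 and 123 are not on one scale. In the last 2 libraries, RNA shared with a deeper CD45+ library and RNA of the cell cannot be told apart.

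**Figure D5:**
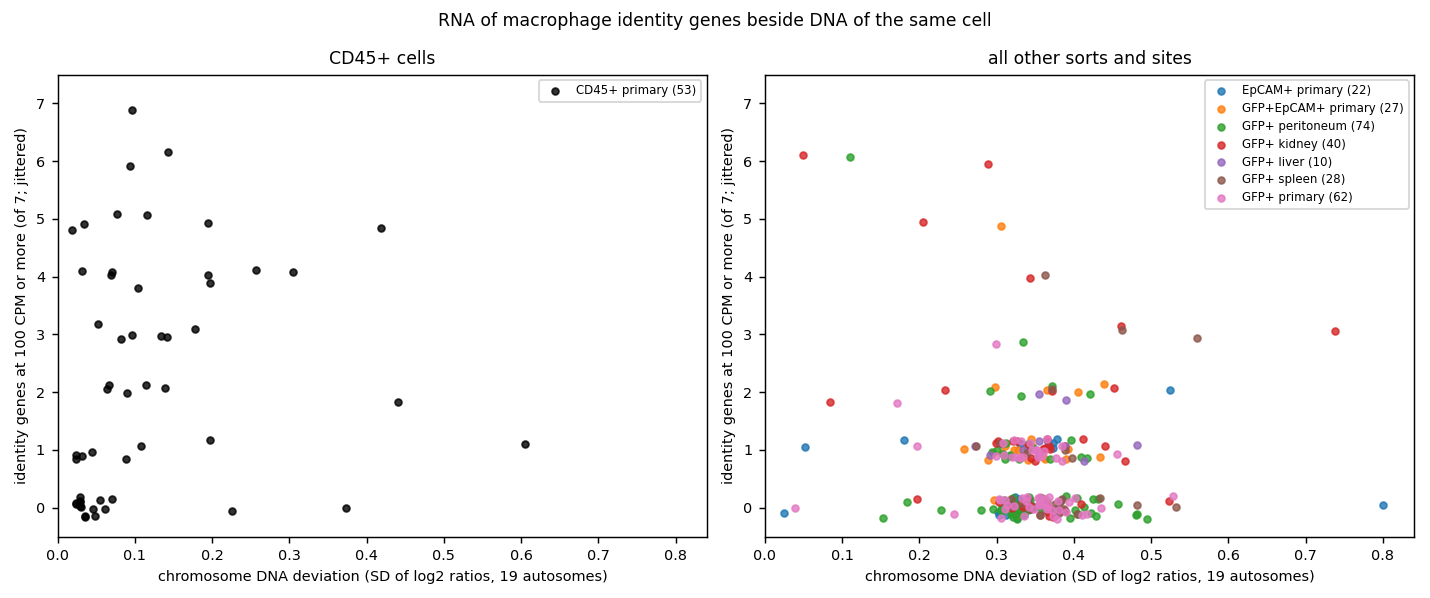
Number of the 7 identity genes at 100 CPM or more (y axis, jittered) against the chromosome DNA deviation of the same cell (x axis, SD of log2 ratios over 19 autosomes) for CD45+ cells (left) and all other groups (right), with cell numbers in the legends. The median deviation is 0.0773 in CD45+ cells and 0.331 to 0.374 in the other groups, where a kidney cell at 0.0491 and a peritoneal cell at 0.11 hold 6 identity genes each.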

How the data were processed

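RNA and DNA were measured in 420 single-cell libraries and 6 bulk libraries of 3 mice. Per the labels' protocols, mRNA was primed with oligo-dT, amplified for 15 cycles with SMART-Seq2 primers, and genomic DNA was amplified in the same tube. The deposited RNA values are expected counts for each gene, 97.4% of them whole, and the deposited DNA values are counts in 5000 bins. The submitters' processing notes name STAR, kallisto, Bowtie 1.0 and build mm9; their roles are not given in the sources used here. Leaving out 92 spike-in entries (0.000348% of counts) and 4 entries whose symbol was repeated left 24424 genes; 23 symbols that read as dates were kept.

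In peritoneum of mouse 1, 2 pairs of libraries had DNA counts that differed by less than sampling noise (chi-square per degree of freedom 0.735 and 0.854; next lowest 1.61) and were averaged as 1 cell each, which left 418 cells. No doublet caller was run, since single cells were sorted into tubes. The counts were added up over the kept cells of a mouse in a group, rounded, filtered with filterByExpr and given TMM factors; the quasi-likelihood test of edgeR 4.0.16 followed (Benjamini-Hochberg within a comparison at 0.05), in a fit of the 4 primary sorts (19703 genes) and a fit of GFP+ cells from all places (21988 genes); their biological coefficients of variation were 1.16 and 1.08. Sums weigh deep cells more: in liver of mouse 2 a single cell made up 75.3% of the counts. P-values adjusted in this way are those in the text. On simulated counts the fits called 84% (CD45+ against GFP+) and 80% (kidney) of genes with a true log2 difference of 10. The replicate was the mouse, and the same number marks the same animal (median r of same-mouse deviations 0.0619, others -0.0429).

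The genes and lists were chosen with earlier results of these data known. The 10 members are always named; of other lists, called genes with the smallest p. One gene with a pattern like that of a member is not reported here. Alternatives were DESeq2 1.42.0, library totals, limma 3.58.1 with each cell's log2 CPM averaged per mouse (pseudocount 1 or 0.1), stricter cells (2000 genes, 50000 counts), no gene filter, only the groups compared, a mouse block and leaving out a mouse; leaving out the largest cell of each sum or the shallower library of each alike pair was chosen after seeing the data. Shares and limits cover counting error only. Levels were not tested between genes. Gene lengths were not used, so that a share of cells at a common cut in CPM may not mean the same for each gene. Software was R 4.3.3, Python 3.11.15, numpy 2.4.6 and pandas 2.3.3.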

Additional observations from a re-analysis of the deposited data

Results flagged for a closer look

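The bulk libraries enter no comparison, and several members stood above their highest value in the 3 bulk GFP+ libraries (peritoneum of mouse 1, primary tumour of mice 1 and 2). In the bulk GFP- peritoneum library of mouse 1 Lyz2 was 5363 CPM, against at most 4.22 CPM in bulk GFP+ libraries. Ctss was 995 CPM there against at most 1.27, Aif1 364 against 12, Ms4a7 197 against 0.73 and Csf1r 146 against 1.46. Ctsd was 193 CPM against at most 76.4 and Mrc1 90.4 against 4.59. Cd68 (63.6 CPM against at most 101), Cd14 (267 against 351) and Ctsb (568 against 2560.2) were below the bulk GFP+ maxima. Each value is that of a single library with no replicate.

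In the bulk CD45+ library of the primary tumour of mouse 1, Lyz2 was 90.8 CPM, Ctss 41.3, Mrc1 24.8 and Csf1r and Ms4a7 8.26 each, all above the same bulk GFP+ maxima, while Cd68 (41.3 CPM), Ctsb (91.7), Ctsd (16.5), Aif1 (8.26) and Cd14 (8.26) were below them. That library had 121118 counts spread over 19644 genes, so that 8.26 CPM is 1 count, and its Lyz2 lies far below the 8791 CPM average of single CD45+ cells of that mouse. The cause was not tested.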

How the results depend on the processing

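In the comparisons of CD45+ cells, 5 members were called over GFP+ cells, and leaving out 1 mouse gave 2 to 3. In those leave-out fits 17 to 130 genes were called higher over all genes, against 124 with all mice. Over EpCAM+ cells 4 were called, 7 by DESeq2 (which called 1061 of 17914 genes higher) and 1 to 4 without 1 mouse. Without 1 mouse, 10 to 136 of all genes were called higher there, against 122 with all mice. Over GFP+EpCAM+ cells 3 were called, 6 by DESeq2, 6 by library totals and 5 by limma with either pseudocount. There DESeq2 called 1651 of 17914 genes higher, library totals 391 of 19703 and limma 310 and 308 of 19703 (pseudocount 1 and 0.1). Without 1 mouse the count of members was 1 to 3, and 10 to 175 of all genes were called higher, against 233 with all mice. In the other comparisons no member was called, except under these settings: DESeq2 called 1 lower in EpCAM+ against GFP+ cells, 2 higher in GFP+EpCAM+ against GFP+ cells, 1 in peritoneum and 1 in kidney. Lyz2 alone (1 member) was called in kidney by library totals, with no gene filter, with only the groups compared, and without the largest cell of each sum, and leaving out 1 mouse gave 0 to 1 (1 without mouse 2). The replicate block, which pairs sums of the same mouse, called 1 lower in liver (Cd68); it also lost Ms4a7 over GFP+ cells (4 members) and Csf1r over GFP+EpCAM+ cells, where Cd68 was called instead (3 members), and over all genes it called 48 higher and 71 lower in liver, against 1 and 2.

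Directions turned as follows. With limma on log2(CPM+1) and log2(CPM+0.1), Ctsb was -1.16 and -1.24 over GFP+, -0.058 and -0.12 over EpCAM+ and -1.81 and -1.91 over GFP+EpCAM+ cells, Ctsd was -0.33 and -0.47, -0.14 and -0.42, and -0.60 and -0.68, and Cd14 over GFP+EpCAM+ cells was -0.28 and -0.39. Without 1 mouse, Ctsd over GFP+EpCAM+ cells was -0.19 to 1.37 (negative without mouse 2) and Mrc1 was -1.09 to 0.92. Mrc1 over GFP+EpCAM+ cells was 0.17 by DESeq2, 0.73 by library totals, 1.12 and 1.63 by limma, 0.15 with only the groups compared and 0.27 without the largest cell. Cd68 was 0.38 in EpCAM+ against GFP+ cells (limma, 0.1) and 0.063 and 0.040 in spleen. The cause was not tested. The limma settings average log2 CPM over cells, so that they differ from edgeR both in cell weight and in scale.

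Over all genes DESeq2 called 912 higher and 989 lower over GFP+ cells, against 124 and 37 by edgeR, and its median difference there was 0.94 against 0.20; with library totals the median over GFP+EpCAM+ cells was 1.24 against 0.52. DESeq2 gave no adjusted p for 5 member differences, Lyz2 in all 3 CD45+ comparisons among them. Stricter cells and counting the repeated libraries separately changed no call of a member. Of 80 levels, the CPM of summed counts moved 14 by more than the spread between mice and stricter cells 3; of 80 shares at 10 CPM, thinning to 10000 counts moved 23. Depth limits the liver most, with 16 cells and a median of 65672 counts.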
